A study of Mus musculus with 12 samples.

Results

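The 10 genes described here encode parts of the machinery that wraps damaged mitochondria and other cargo in membrane and delivers them to the lysosome. They were chosen by name from the rows of the deposited FPKM table, and all 10 of 10 were found among its 27833 genes. FPKM counts sequenced fragments relative to transcript length and to the size of the library. The 12 hippocampal RNA-seq libraries came from naturally aged wild-type male C57BL/6J mice, 20 months old, that were gavaged for 14 days. The CON group (3 libraries) received saline, the PQQ-L group (5 libraries) received pyrroloquinoline quinone (PQQ), a redox cofactor taken up from food, at 5 mg/kg/day, and the PQQ-H group (4 libraries) received it at 10 mg/kg/day. All 3 groups were aged, so no young animals stand beside them. The labels number the libraries within each group and name no animal, and the p-values below therefore measure the spread between these libraries.

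In mitophagy, a damaged mitochondrion is marked for removal and enclosed in an autophagosome. The kinase PINK1 accumulates on mitochondria that have lost their membrane potential and sets off the tagging of their surface with ubiquitin, and adaptors that bind ubiquitin (p62, encoded by Sqstm1, and optineurin) tie the marked organelle to lipid-bound LC3 on the growing membrane. BNIP3, NIX (Bnip3l) and FUNDC1 are receptors in the outer mitochondrial membrane that bind LC3 directly, and the kinase ULK1 and the Beclin 1 lipid kinase complex start autophagosome formation. Neurons depend on this turnover because they do not divide, and much of its regulation acts on proteins, by phosphorylation, cleavage and degradation, which a transcript level does not measure.

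Marker genes divided the libraries in a way that cuts across the groups. The summed FPKM of 12 striatum markers, such as the dopamine receptor genes Drd1 and Drd2, was 1360 to 3411 in the libraries CON 1, CON 3, PQQ-H 1 and PQQ-H 2 but 37.7 to 182 in the other 8 libraries. In the same 4 libraries the sum of 10 hippocampal neuron markers was 71.0 to 153, against 204 to 403 in the other 8, so they go against the tissue label in part. The 9 oligodendrocyte markers summed to 1739 to 2714 in these 4 libraries and to 947 to 1639 in the others, and the 8 microglial markers to 280 to 357 and 198 to 246. The 14 choroid plexus markers separated the groups themselves, with sums of 1789 to 5947 in CON, 102 to 199.8 in PQQ-L and 78.3 to 95.7 in PQQ-H. Reads on genes were 29654553 to 38179496 per library, with overlapping ranges in the 3 groups. The values of the 10 genes against CON are given below with all 12 libraries and without those 4, which leaves 1 CON library, and the part of tissue composition in them was not tested. That library, CON 2, had marker sums of 1789 (choroid plexus), 65.7 (thalamus) and 55.2 (ependyma). The PQQ libraries had at most 199.8, 34.6 and 41.0, so leaving out the 4 does not match the groups in tissue composition. In bulk tissue, fewer cells of a type and less RNA per cell cannot be told apart.

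The stretches of DNA just before the transcription start are shown for 3 of the genes. Pink1 had its highest values, and Ulk1 most of its lowest, in the libraries rich in striatum genes, and Bnip3 was the only one of the 7 genes with a promoter in the RefSeq table (GRCm38.p6) that holds a CACGTG E-box, the core bound by the MiT/TFE factors of lysosomal genes. The 7 genes were Pink1, Bnip3, Fundc1, Sqstm1, Optn, Map1lc3b and Ulk1. Capitals mark matches on either strand to CACGTG, to ACGTG (the core of the hypoxia response element, which lies inside CACGTG), to GGGCGG (the GC box bound by Sp1) and to TGACNNNGC (the antioxidant response element). The sequences run 5′ to 3′ on the gene's strand, which is the minus strand for all 3, and stop at the first annotated GENCODE transcript base. They cover chr4:138326308-138326546, chr7:138909520-138909756 and chr5:110810098-110810331.
Pink1: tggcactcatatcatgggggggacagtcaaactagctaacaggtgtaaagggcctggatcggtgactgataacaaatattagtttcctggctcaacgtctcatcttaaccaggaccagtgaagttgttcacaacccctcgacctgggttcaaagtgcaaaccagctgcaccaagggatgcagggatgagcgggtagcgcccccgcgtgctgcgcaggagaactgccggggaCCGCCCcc
Bnip3: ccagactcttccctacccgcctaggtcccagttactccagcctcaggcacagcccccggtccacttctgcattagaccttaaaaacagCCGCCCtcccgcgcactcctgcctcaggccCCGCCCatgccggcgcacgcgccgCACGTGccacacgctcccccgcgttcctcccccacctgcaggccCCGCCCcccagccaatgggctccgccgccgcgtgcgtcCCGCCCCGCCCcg
Ulk1: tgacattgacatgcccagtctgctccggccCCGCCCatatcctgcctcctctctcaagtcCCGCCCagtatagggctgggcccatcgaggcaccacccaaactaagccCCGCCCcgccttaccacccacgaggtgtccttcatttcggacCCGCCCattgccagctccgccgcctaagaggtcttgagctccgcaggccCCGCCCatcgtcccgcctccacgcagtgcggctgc

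In the 250 bases before the RefSeq start, Pink1 had 1 GC box, Bnip3 had 6 and Ulk1 had 5, and the last of the 6 in Bnip3 runs past the stretch printed. Sqstm1 had 3, Optn and Map1lc3b had 1 each, and Fundc1 had none. Of 32851 mouse promoters searched over the same 250 bases, 32.7% held a GC box, 6.02% held CACGTG, 16.6% held ACGTG and 10.2% held TGACNNNGC. These shares are not matched for base composition. The median share of G and C was 52.4% over all promoters, and the 7 genes ran from 50.0% (Optn) to 72.4% (Bnip3). No TGACNNNGC was found in the 7 windows, which says only that these letters are not there.

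Transcripts of all 10 genes were detected in every library. Pink1 had the highest mean level (216 FPKM, the 98.4th percentile of the 13796 genes tested), followed by Map1lc3a (158), Sqstm1 (91.2), Map1lc3b (88.6), Bnip3 (67.9), Becn1 (49.8), Bnip3l (37.0), Fundc1 (14.0), Ulk1 (10.8) and Optn (4.03, the 38.6th percentile). FPKM corrects for length, so these levels can be set side by side. Neighbours in this order had ranges that did not overlap over the 12 libraries, except Pink1 with Map1lc3a, Sqstm1 with Map1lc3b and Fundc1 with Ulk1. Pink1 was still above Map1lc3a in 12 of 12 libraries and Fundc1 above Ulk1 in 11, whereas Sqstm1 was above Map1lc3b in 8. The smallest number of reads behind a value was 431, for Optn. Counting error was therefore 0.743% (Pink1) to 3.93% (Optn) of the mean, against a spread within groups of 3.50% (Becn1) to 19.2% (Pink1).

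**Figure D1:**
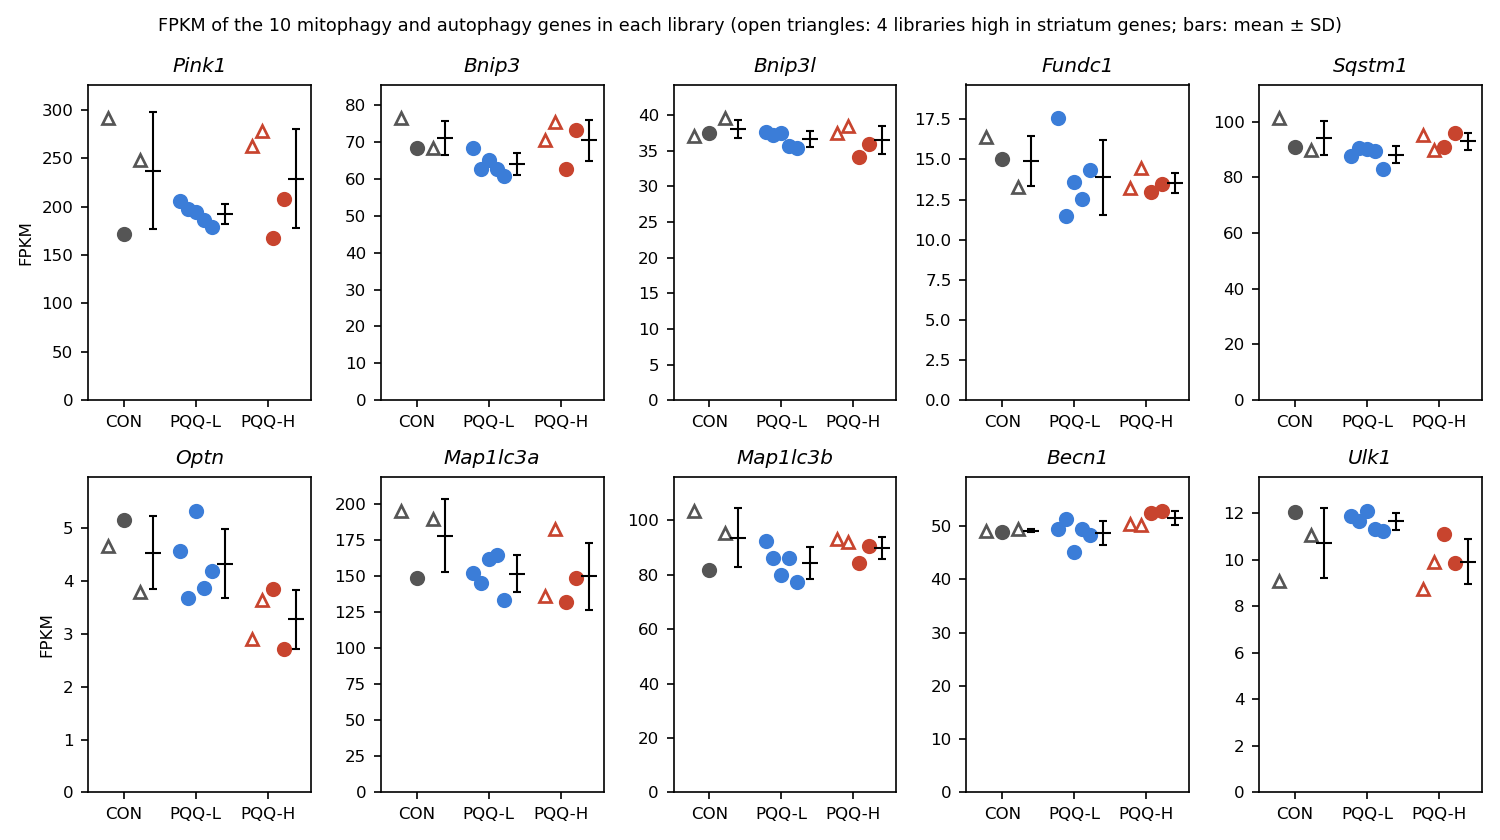
FPKM of the 10 genes (vertical axis, from 0) by group (horizontal axis), with 1 point per library, open triangles for the 4 libraries rich in striatum genes and black bars for the group mean ± SD. The triangles hold the 4 highest Pink1 values, the 4 PQQ-H points of Ulk1 all lie below the 5 PQQ-L points, and the groups overlap in most other panels.

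Pink1, the kinase at the head of the pathway, varied more by library than by group. It stood at 291, 172 and 248 FPKM in CON, at 205, 197, 194, 186 and 179 in PQQ-L, and at 262, 278, 167 and 208 in PQQ-H. The PQQ-L libraries lay inside the range of CON, and the PQQ-H range overlapped both. The fitted log2 fold change was -0.27 in PQQ-L vs. CON (95% interval -0.67 to 0.13, limma adjusted p = 0.344) and -0.046 in PQQ-H vs. CON (-0.46 to 0.37, adjusted p = 0.951). The 4 libraries rich in striatum genes held 248 to 291 FPKM and the other 8 held 167 to 208, with no overlap. Without those 4, the log2 fold changes were 0.16 and 0.11, so the sign turned for both doses. Between PQQ-H 1 and 2 and CON 1 and 3 alone, the difference in mean log2(FPKM + 0.1) was 0.0069.

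Among the receptors, Bnip3, an outer membrane protein induced by hypoxia, was lower in 4 of 5 PQQ-L libraries than in any CON library. Its level was 76.4, 68.5 and 68.4 FPKM in CON, 68.4, 62.7, 65.2, 62.7 and 60.8 in PQQ-L, and 70.4, 75.3, 62.8 and 73.2 in PQQ-H. The highest PQQ-L library lay just above the lowest CON library, by less than the rounding shows, so the groups overlapped at their edges. The log2 fold change in PQQ-L vs. CON was -0.15 (-0.32 to 0.013, adjusted p = 0.253, two-sided exact permutation p = 0.0714, where 0.0357 is the smallest that 3 against 5 libraries allow). In PQQ-H vs. CON it was -0.015 (-0.19 to 0.16). These differences were -0.099 and -0.014 without the 4 libraries rich in striatum genes.

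Bnip3l, whose product NIX clears mitochondria from maturing red cells, was the steadiest of the 10 genes over all libraries. CON gave 37.2, 37.5 and 39.6 FPKM, PQQ-L gave 37.7, 37.2, 37.6, 35.6 and 35.4, and PQQ-H gave 37.5, 38.5, 34.1 and 36.0. Its coefficient of variation over the 12 libraries was 4.00%, and both dose groups overlapped CON. The intervals of the log2 fold change were -0.18 to 0.078 in PQQ-L vs. CON and -0.20 to 0.076 in PQQ-H vs. CON, and without the 4 libraries the fold changes themselves were -0.033 and -0.099. RefSeq lists a pseudogene, Bnip3l-ps, with a mean of 5.91 FPKM in the table. Reads that match both could be misassigned or left out, so the Bnip3l level is uncertain by an amount that was not measured.

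Fundc1, the receptor whose binding to LC3 is set by phosphorylation, ran at 16.4, 15.0 and 13.3 FPKM in CON. In PQQ-L it ran at 17.6, 11.5, 13.6, 12.5 and 14.3, and in PQQ-H at 13.2, 14.4, 13.0 and 13.5. PQQ-L held both the highest and the lowest of the 12 values. The log2 fold changes were -0.11 (-0.38 to 0.16) in PQQ-L vs. CON and -0.13 (-0.42 to 0.15) in PQQ-H vs. CON, and neither passed the test (adjusted p = 0.550 and 0.794). Leaving out the 4 libraries rich in striatum genes gave -0.13 and -0.18.

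The cargo adaptors gave 1 gene with a narrow range and 1 with the largest difference in the set. Sqstm1, whose product p62 is itself consumed by autophagy, had 101, 91.0 and 89.9 FPKM in CON. It had 87.5, 90.5, 90.0, 89.4 and 82.9 in PQQ-L and 95.1, 89.8, 90.8 and 95.7 in PQQ-H. These values overlapped between CON and each dose, with log2 fold changes of -0.093 (-0.23 to 0.042) in PQQ-L vs. CON and -0.017 (-0.16 to 0.12) in PQQ-H vs. CON. Sqstm1 stood at -0.048 and 0.035 without the 4 libraries rich in striatum genes, so the sign turned for the high dose. In PQQ-H vs. PQQ-L the log2 fold change was 0.077 (adjusted p = 0.619), with a two-sided exact permutation p of 0.0476 for this gene alone.

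Optn, the optineurin gene, was at 4.67, 5.17 and 3.79 FPKM in CON and at 4.58, 3.68, 5.34, 3.87 and 4.19 in PQQ-L. In PQQ-H it was at 2.91, 3.64, 3.86 and 2.71. A single PQQ-H library (3.86) lay above the lowest CON library (3.79), and 3.86 and 3.64 bracketed the lowest PQQ-L library. The log2 fold change was -0.46 in PQQ-H vs. CON (-0.82 to -0.10), with an unadjusted limma p of 0.0160 and an adjusted p of 0.347, so the gene did not pass the test, and the two-sided exact permutation p was 0.114. In PQQ-H vs. PQQ-L it was -0.39 (-0.71 to -0.079), with an unadjusted limma p of 0.0186, an adjusted p of 0.580 and a two-sided exact permutation p of 0.0317. Without the 4 libraries rich in striatum genes the same differences were -0.66 and -0.40, and between PQQ-H 1 and 2 and CON 1 and 3 alone the first was -0.36. In PQQ-L vs. CON the log2 fold change of Optn was -0.068 (-0.41 to 0.27).

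The LC3 genes, which encode the ubiquitin-like proteins that are joined to lipid on the autophagosome, had higher values in CON 1 and CON 3 than in CON 2. Map1lc3a was at 196, 149 and 189.8 FPKM in CON, at 153, 146, 162, 165 and 134 in PQQ-L, and at 136, 183, 132 and 149 in PQQ-H. Map1lc3b was at 104, 82.0 and 95.6 in CON, at 92.6, 86.1, 80.0, 86.3 and 77.5 in PQQ-L, and at 93.2, 92.0, 84.2 and 90.5 in PQQ-H. CON 2 lay within the range of each dose group for Map1lc3a, and within the PQQ-L range and below the PQQ-H range for Map1lc3b.

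For Map1lc3a the log2 fold changes were -0.23 (-0.50 to 0.050, adjusted p = 0.277) in PQQ-L vs. CON and -0.25 (-0.54 to 0.037, adjusted p = 0.591) in PQQ-H vs. CON. For Map1lc3b they were -0.15 (-0.33 to 0.044, adjusted p = 0.295) and -0.053 (-0.25 to 0.14, adjusted p = 0.877). Without the 4 libraries rich in striatum genes, Map1lc3a stood at 0.022 and -0.089 and Map1lc3b at 0.041 and 0.090. The sign of both genes in PQQ-L vs. CON, and of Map1lc3b in PQQ-H vs. CON, thus turned in a fit that keeps CON 2 as the only CON library. With all 12 libraries and the striatum score as a covariate, these values were -0.086, -0.043 and -0.019. Without CON 1 alone, Map1lc3b in PQQ-H vs. CON was at 0.023.

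Of the initiation genes, Becn1, which encodes the Beclin 1 scaffold of the class III lipid kinase, had the smallest spread within groups. CON was at 49.0, 49.0 and 49.5 FPKM and PQQ-L at 49.5, 51.3, 45.1, 49.5 and 48.3. PQQ-H was at 50.4, 50.2, 52.5 and 52.9, and each of these 4 libraries was above each of the 3 CON libraries. The difference was small, a log2 fold change of 0.067 (-0.065 to 0.20, limma adjusted p = 0.778), and the two-sided exact permutation p of 0.0571 is the smallest that 3 against 4 libraries allow. Without the 4 libraries rich in striatum genes the log2 fold change of Becn1 was 0.11, and at the low dose it was -0.014 with all libraries and -0.0086 without them. Over all genes tested, 1.36% were higher in every PQQ-H library than in every CON library and 5.72% were lower in every one, and among the 10 genes Becn1 was the single case. PQQ-L and CON overlapped for each of the 10 genes, where 7.66% of all genes were lower in every PQQ-L library and 2.96% higher.

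Ulk1, the kinase gene that nutrient sensing acts on, was at 9.09, 12.0 and 11.1 FPKM in CON and at 11.9, 11.7, 12.1, 11.3 and 11.3 in PQQ-L. In PQQ-H it was at 8.77, 9.92, 11.1 and 9.86, below the 5 PQQ-L libraries without overlap and overlapping CON. The log2 fold change in PQQ-H vs. PQQ-L was -0.24 (-0.43 to -0.037, unadjusted limma p = 0.0238, adjusted p = 0.580, two-sided exact permutation p = 0.0159). Over all genes, 3.33% were lower in every PQQ-H than in every PQQ-L library and 1.42% higher, so 1 such gene in 10 is not far from that background. Without the 4 libraries rich in striatum genes the difference was -0.15. Against CON, Ulk1 gave 0.13 (-0.088 to 0.34) in PQQ-L and -0.11 (-0.33 to 0.12) in PQQ-H, and the first turned to -0.047 without those libraries.

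Set against CON, the question for these genes was whether the 14 days of PQQ changed their transcript levels, and none of the 10 passed the test at either dose. With limma and an adjusted p below 0.05, 0 of 10 were called in PQQ-L vs. CON, where 0.587% of all genes were called, and 0 of 10 in PQQ-H vs. CON, where 1.09% were called. In PQQ-H vs. PQQ-L 0 of 10 were called, as was 0% of all genes. At an unadjusted p below 0.05, 0 genes of the set were counted in PQQ-L vs. CON, where 11.6% of all genes were lower and 8.92% higher. In PQQ-H vs. CON 1 gene (Optn) was lower, where 7.88% of all genes were lower and 1.85% higher. In PQQ-H vs. PQQ-L 2 genes (Optn and Ulk1) were lower, where 4.6% of all genes were lower and 3.55% higher. The 95% intervals of the 10 genes ran from 0.629-fold to 1.27-fold in PQQ-L vs. CON and from 0.566-fold to 1.29-fold in PQQ-H vs. CON, from the fit of all 12 libraries.

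The fitted values of 9 of the 10 genes were below 0 in PQQ-L vs. CON, a count that was 8 after median-of-ratios scaling or quantile normalization and 5 as TPM. Their median log2 fold change was -0.10, beside -0.030 for all genes, of which 53.9% were below 0. The TPM scale moved the median of all genes to 0.080, and the median of the 10 genes relative to it was -0.072 on both scales. In PQQ-H vs. CON 9 of the 10 were again below 0, but 4 after median-of-ratios scaling and 7 as TPM, with a median of -0.057 beside -0.027 for all genes. In PQQ-H vs. PQQ-L 5 were below 0 and 5 above (2 below after median-of-ratios scaling and 7 as TPM), with a median of 0.035 beside -0.022. Both comparisons with saline share the CON libraries, so their values are given side by side only. Without the 4 libraries rich in striatum genes the medians of the 10 genes were -0.040, -0.052 and -0.049, beside -0.034, -0.049 and -0.021 for all genes.

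**Figure D2:**
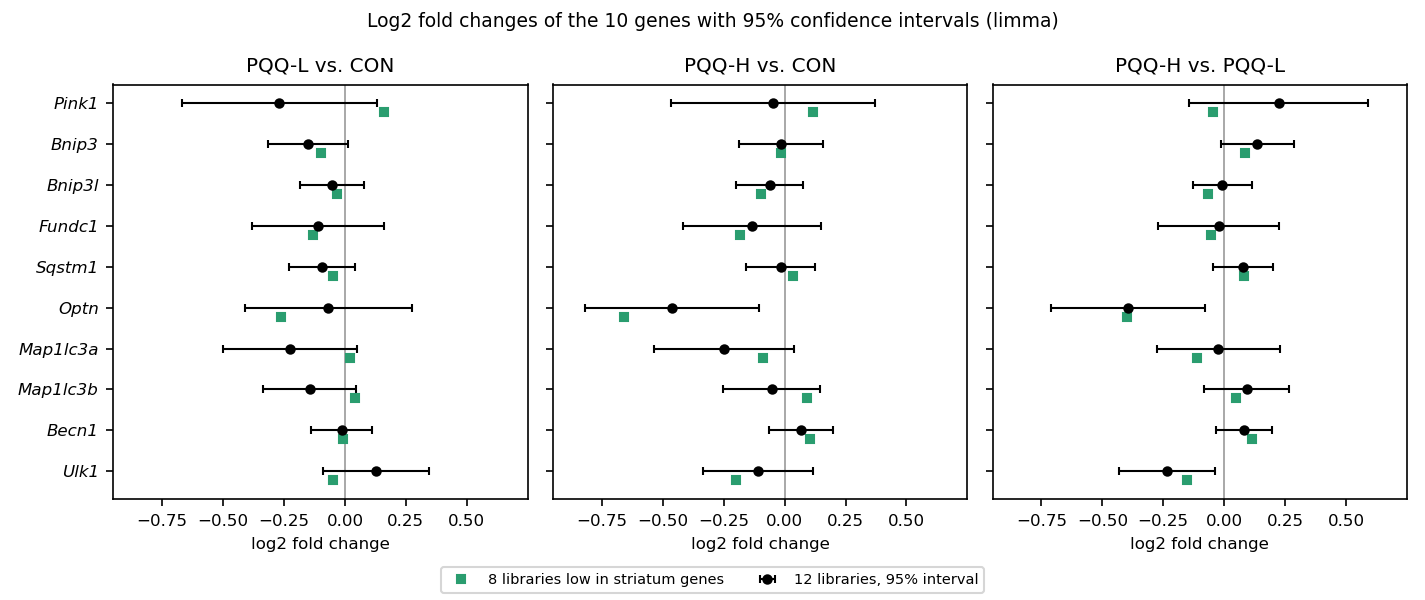
Log2 fold change (horizontal axis) of each gene in the 3 comparisons, with black points and 95% intervals from the fit of 12 libraries and green squares for the fit of the 8 libraries low in striatum genes. The intervals cross 0 except for Optn in PQQ-H vs. CON and for Optn and Ulk1 in PQQ-H vs. PQQ-L. Pink1 changes side between points and squares in all 3 comparisons. Map1lc3a, Map1lc3b and Ulk1 also do so in PQQ-L vs. CON, and Sqstm1 and Map1lc3b in PQQ-H vs. CON.

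Ordered by the striatum markers, the libraries showed how the genes varied among themselves. Pink1, Bnip3, Map1lc3a and Map1lc3b had means of 269.8, 72.6, 176 and 96.1 FPKM in the 4 libraries rich in striatum genes and of 189, 65.5, 149 and 84.9 in the other 8. Ulk1 ran the other way, at 9.71 and 11.4, and Becn1 had 49.8 in both. Because the libraries form these separate sets, no correlation over all 12 is given. Within the 8 libraries (1 CON, 5 PQQ-L and 2 PQQ-H, so that group differences enter), Optn and Ulk1 had a Pearson r of 0.92 (exact permutation p = 0.00246, 0.110 after adjustment over 45 pairs) and a Spearman rho of 0.83 (exact p = 0.0154, adjusted 0.346). Without the 2 libraries farthest from the median of Optn, that r was 0.73. Optn and Becn1 had an r of -0.81 (exact permutation p = 0.0157, adjusted 0.353) and a rho of -0.90 (exact p = 0.00456, adjusted 0.205), with an r of -0.59 without those 2. Of the 45 pairs, 0 passed after adjustment by either measure, and before it 2 were below 0.05 by Pearson r and 4 by Spearman rho.

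**Figure D3:**
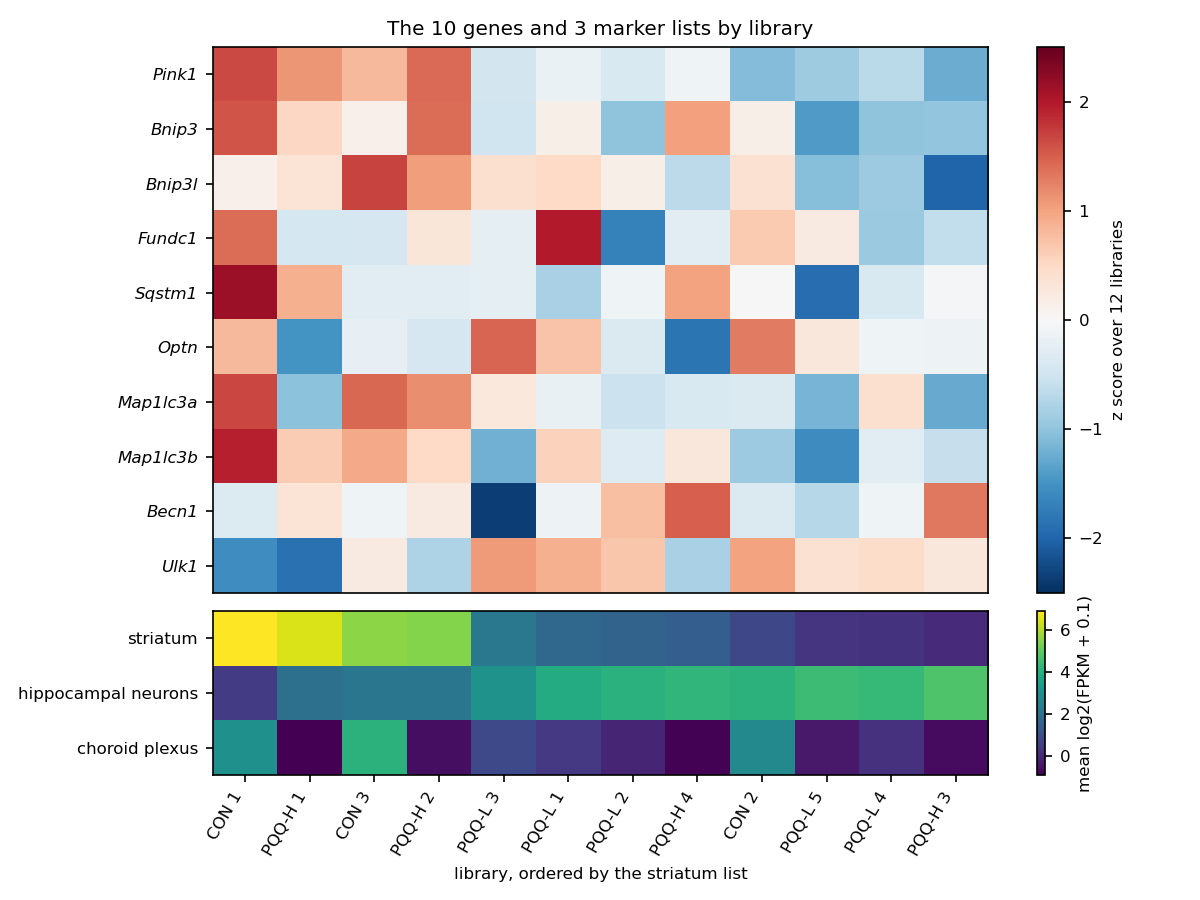
Each gene's z score over the 12 libraries (upper panel, red high and blue low) and the mean log2(FPKM + 0.1) of 3 marker lists (lower panel), with libraries ordered from left to right by the striatum list. Pink1 is red in the 4 libraries on the left and pale or blue elsewhere, and the choroid plexus list is highest in the 3 CON libraries.

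For each gene, the genes whose log2 level followed it most closely by r over all 12 libraries were listed as a description. Their r over the 8 libraries low in striatum genes, a part of those 12, was between 0.87 and 0.94. Pink1 was followed by Psat1, an enzyme of serine synthesis (r = 0.91), and Rac2 (r = 0.92). Like Pink1, these were higher in the 4 libraries rich in striatum genes, with 102 to 119 FPKM against 55.6 to 76.0 for Psat1. The closest genes were Arpin and Selenok for Bnip3, Reep3 and Uaca for Bnip3l, and Ppp1r3f and Gm15816 for Fundc1. Sqstm1 was followed by Myg1 and BC005624, Optn by Ccdc136 (r = 0.94) and Abtb3, Map1lc3a by Dpcd and Nudt1, and Map1lc3b by Nrtn and Qdpr. Becn1 was followed by the hippocampal calcium sensor gene Hpca (r = 0.94) and the calcineurin gene Ppp3ca (r = 0.93), and Ulk1 by Larp1. These genes were the closest of the 13796 tested by r over all 12 libraries, which include the 4 rich in striatum genes. That selecting r ran from 0.89 (Gm15816 with Fundc1) to 0.99 (Psat1 with Pink1). The r values printed, over the 8 libraries, use a part of the same data, so they are not independent of the selection. The points share their libraries and tissue composition.

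The other genes of the pathway were taken from 9 lists with 120 genes, of which 119 were in the table and 117 were tested. In PQQ-L vs. CON 2 of the 117 (1.71%) were called, both lower, beside 0.587% of all genes, and in PQQ-H vs. CON 2 were called, also both lower, beside 1.09%. In both comparisons these were Vamp8 and Ctsl, from the list of fusion and lysosome genes. At an unadjusted p below 0.05, 17 were lower and 4 higher in PQQ-L vs. CON (14.5% and 3.42% of the 117, beside 11.6% and 8.92% of all genes). At that p 10 were lower and 0 higher in PQQ-H vs. CON, where 7.88% and 1.85% of all genes were. In PQQ-H vs. PQQ-L 3 were lower and 2 higher, where 4.6% and 3.55% of all genes were, and limma called 0. The median log2 fold changes of the 117 genes were -0.039 and -0.050 against CON, beside the -0.030 and -0.027 of all genes.

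**Figure D4:**
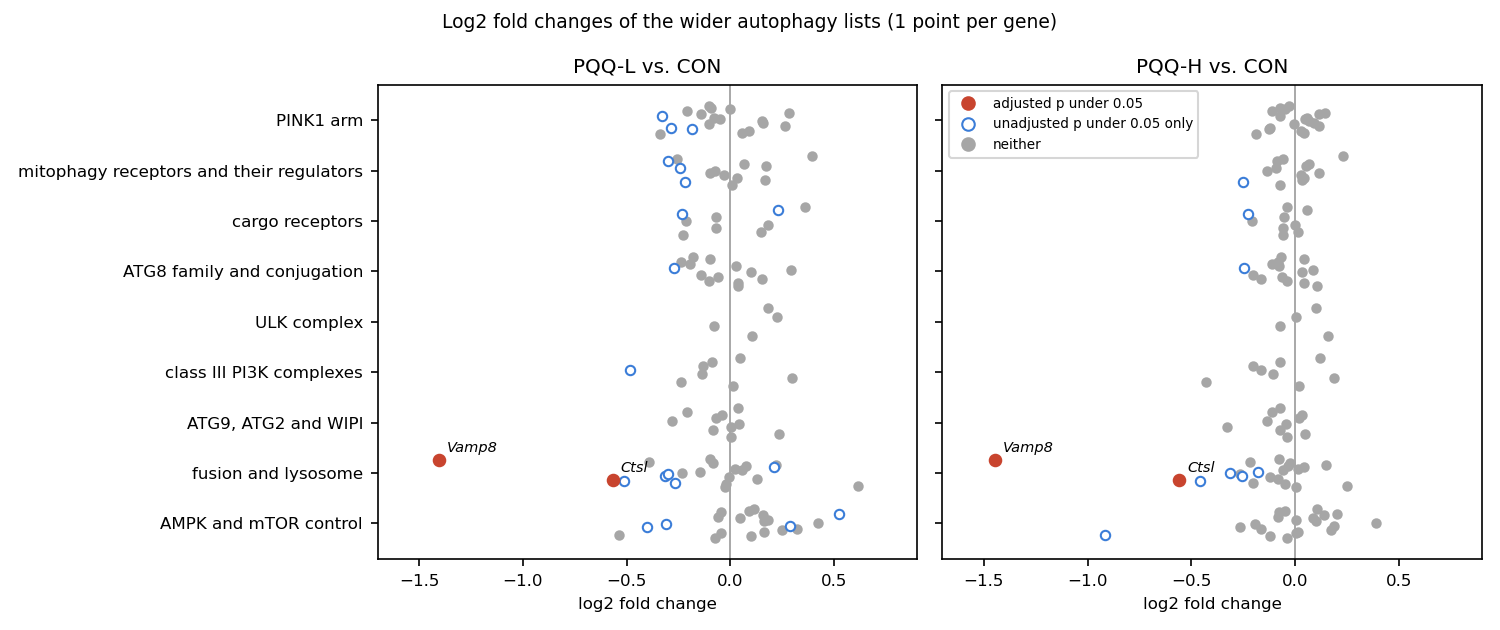
Log2 fold change (horizontal axis) of the genes in 9 autophagy lists (rows), with a panel for each dose against CON and 1 point per gene, red for an adjusted p below 0.05, open blue for an unadjusted p below 0.05 only and grey for the rest. Vamp8 and Ctsl are the red points in both panels, and most genes lie between -0.5 and 0.5.

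Vamp8, the SNARE that fuses autophagosomes with lysosomes and also acts in secretion, was the gene with the largest difference. It stood at 34.0, 20.6 and 44.4 FPKM in CON, at 12.2, 12.6, 10.4, 13.9 and 10.3 in PQQ-L, and at 10.2, 15.1, 8.74 and 12.8 in PQQ-H. Each PQQ library was below each CON library, as for 7.66% of all genes at the low dose and 5.72% at the high dose. The log2 fold change was -1.41 (SE 0.234, adjusted p = 0.0215) in PQQ-L vs. CON and -1.45 (SE 0.244, adjusted p = 0.0160) in PQQ-H vs. CON. Ctsl, a lysosomal cysteine protease gene, stood at 41.0, 33.6 and 45.4 FPKM in CON, at 28.5, 26.7, 27.6, 25.8 and 25.2 in PQQ-L, and at 30.0, 28.2, 22.5 and 27.5 in PQQ-H. It fell by 0.57 (SE 0.110, adjusted p = 0.0491) and by 0.56 (SE 0.116, adjusted p = 0.0456) on the log2 scale.

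The choroid plexus markers moved with these 2 genes. All 14 of them were tested, their sum was lowest at 1789 FPKM in CON and highest at 199.8 in the PQQ libraries, and Kcne2, Folr1, Otx2 and Slc4a5 were at 0 in some PQQ libraries. Among the 3 CON libraries, Vamp8 was lowest in CON 2, which had the lowest choroid plexus sum, and highest in CON 3, which had the highest. The PQQ libraries did not keep to that order. PQQ-H 2 had the highest Vamp8 of them (15.1 FPKM) at a sum of 95.7. PQQ-L 3 had 10.4 at a sum of 184, and PQQ-L 4 had 13.9 at 199.8. With the choroid plexus score as a covariate, the log2 fold changes of Vamp8 were -0.28 (SE 0.698) and 0.030 (SE 0.896), and those of Ctsl -0.041 and 0.13. That fit called 0 of all 13796 genes in either comparison, so a lost call there is not particular to these 2 genes. Neither gene was called without CON 1 (limma adjusted p of Vamp8 0.156 and 0.0819) or without CON 3 (0.0997 and 0.0777). Of all genes, 23 and 68 were called without CON 1 and 37 and 66 without CON 3, beside 81 and 151 with all libraries. The log2 fold changes of Vamp8 were -1.35 and -1.39 without CON 1 and -1.16 and -1.20 without CON 3. Without the 4 libraries rich in striatum genes, which leaves 1 CON library, they were -0.80 and -0.96. Those of Ctsl were -0.54 and -0.54, -0.47 and -0.46, and -0.33 and -0.43 in the same order. Without CON 2 both were called in both comparisons, and 31 of the 117 genes (26.5%) were called in PQQ-L vs. CON, 15 higher and 16 lower, beside 3224 of all 13796 genes (23.4%), 1742 higher and 1482 lower. The part of the choroid plexus in these differences was not tested, and since its markers separate CON from both doses, tissue composition and treatment cannot be told apart here.

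The rest of the fusion and lysosome list held several genes with an unadjusted p below 0.05 and no call. Among them were Ctsd (log2 fold change -0.51, adjusted p = 0.0922) and Grn (-0.32, adjusted p = 0.0756) at the low dose, and both again at the high dose at -0.46 (adjusted p = 0.156) and -0.26 (adjusted p = 0.169). Ctsd encodes the main aspartic protease of lysosomes and Grn encodes progranulin. For both genes each PQQ library was below each CON library, as for the 7.66% and 5.72% of all genes given above. Ctsd stood at -0.22 and -0.26 and Grn at -0.27 and -0.25 without the 4 libraries rich in striatum genes. With the choroid plexus score as a covariate, Ctsd was at 0.22 (SE 0.321) and 0.50 (SE 0.412). In the same fit Grn was at -0.13 (SE 0.224) and -0.020 (SE 0.287). Of the 21 genes in the list, 6 were lower and 1 higher at that p in PQQ-L vs. CON, where 11.6% and 8.92% of all genes were, and 6 lower and 0 higher in PQQ-H vs. CON, where 7.88% and 1.85% were.

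In the list of the PINK1 arm 0 of 18 genes tested were called by limma, beside 0.587% of all genes at the low dose and 1.09% at the high dose. At an unadjusted p below 0.05, 3 were lower at the low dose and 0 at the high dose, where 11.6% and 7.88% of all genes were lower. Parl, the inner membrane protease that cleaves PINK1, had the smallest p in PQQ-L vs. CON (-0.29, adjusted p = 0.222), and the ubiquitin ligase gene Mul1 in PQQ-H vs. CON (-0.13, adjusted p = 0.678). Among the 13 mitophagy receptors and their regulators the smallest p belonged to Nipsnap2 (-0.30, adjusted p = 0.202) and Bcl2l1 (-0.25, adjusted p = 0.226). Among 9 cargo receptors tested it belonged to Tex264, a receptor for the endoplasmic reticulum, in both comparisons (-0.23 and -0.23, adjusted p = 0.204 and 0.338), and Calcoco2 was not tested, with at most 9 reads in a library.

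The ATG8 family genes beside the LC3 pair were abundant. Gabarapl1 ranged from 376 to 488 FPKM over the 12 libraries, above Pink1 in each group mean, Gabarap from 126 to 177 and Gabarapl2 from 110 to 145. In the list of the ATG8 family and its conjugation enzymes, Atg4d, a protease that processes these proteins, had the smallest p in both comparisons with CON (-0.27 and -0.25, adjusted p = 0.233 and 0.503). Limma called 0 of 14 in each, beside 0.587% and 1.09% of all genes. At an unadjusted p below 0.05, 1 was lower in each, where 11.6% and 7.88% of all genes were lower.

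The 4 ULK complex partners gave no gene with an unadjusted p below 0.05 in either comparison with CON, and Ulk2 (0.18, adjusted p = 0.249, PQQ-L) and Atg101 (0.16, adjusted p = 0.694, PQQ-H) had the smallest p. In the class III PI3K complexes these were Pik3r4 (-0.48, adjusted p = 0.230, PQQ-L) and Rubcn (-0.20, adjusted p = 0.704, PQQ-H), and in the group of ATG9, ATG2 and WIPI genes they were Vmp1 (-0.28, adjusted p = 0.249) and Atg9b (-0.33, adjusted p = 0.737). Of the 20 genes of AMPK and mTOR control, 2 were lower and 2 higher at that p in PQQ-L vs. CON, led by the AMPK subunit gene Prkag1 (-0.31, adjusted p = 0.187), and 1 was lower in PQQ-H vs. CON, the mTOR inhibitor gene Deptor (-0.92, adjusted p = 0.299). Over all genes, 11.6% were lower and 8.92% higher at that p in PQQ-L vs. CON, and 7.88% and 1.85% in PQQ-H vs. CON.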

How the data were processed

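RNA was extracted with TRIzol from hippocampus, and the libraries were made with the VAHTS Universal V10 kit. Reads were trimmed by the authors with fastp, aligned by HISAT2 (build mm39, per the submitters' processing notes) and counted by HTSeq-count, and FPKM values per gene were deposited. The annotation and the strand setting are not given in the sources used here. Whole reads were recovered from the FPKM ratios between libraries (100% of 25563 genes, tolerance 0.02 reads). They were used for the counting error, for the reads on genes of each library and for an alternative test (limma with voom weights), not for the main test.

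Genes whose mean FPKM reached 0.5 were tested with limma 3.58.1 (R 4.3.3) on log2(FPKM + 0.1), with a trend, in 1 fit of 12 libraries, and called at a Benjamini-Hochberg adjusted p below 0.05 over 13796 genes. The pseudocount understates the change of low genes. Exact permutation tests were two-sided. The fit was tested on simulated data. No 2 libraries of a group were duplicates (chi-square of at least 17.4 per degree of freedom in each of 19 pairs). Promoters came from RefSeq GRCm38.p6, whose coordinates are not those of mm39.

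The 10 genes, the lists and the markers were chosen with earlier results of these data known. From the lists, called genes and the gene with the smallest p in each comparison with CON were named. Ctsd, Grn, Calcoco2 and the GABARAP genes were added after their values were seen. Same-numbered libraries were not paired, since the correlations of their deviations ran from -0.62 to 0.72. Some results of the rules above concern items that are not reported here.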

Additional observations from a re-analysis of the deposited data

How the results depend on the processing

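None of the 10 genes was called in any of the 3 comparisons under any of the alternatives run. Some of these alternatives called few of all genes, as given below. Without CON 2, 3224 of all 13796 genes were called in PQQ-L vs. CON. In that fit the limma adjusted p was 0.0565 for Map1lc3b, 0.0588 for Pink1 and 0.0644 for Map1lc3a. The median log2 fold change of the 10 genes in PQQ-L vs. CON was 0.0083 as TPM and 0.036 with the choroid plexus score as a covariate, and ran from -0.15 to -0.057 with 1 library left out. In PQQ-H vs. CON it was 0.11 with the choroid plexus score and ran from -0.098 to -0.020 with 1 library left out. In PQQ-H vs. PQQ-L it was -0.053 as TPM, -0.049 without the 4 libraries rich in striatum genes (an alternative chosen after seeing the data) and 0.024 to 0.070 with 1 library left out. Of the 30 values (10 genes in 3 comparisons), 8 kept their sign under all alternatives, among them Optn in PQQ-H vs. CON and in PQQ-H vs. PQQ-L, Ulk1 in PQQ-H vs. PQQ-L and Bnip3 in PQQ-L vs. CON. The sign changed as follows, with log2 fold changes. As TPM, PQQ-L vs. CON gave 0.058 for Bnip3l, 0.018 for Sqstm1, 0.041 for Optn and 0.097 for Becn1, PQQ-H vs. CON gave 0.0088 for Bnip3 and 0.0072 for Sqstm1, and PQQ-H vs. PQQ-L gave -0.011 for Sqstm1 and -0.0064 for Becn1. After median-of-ratios scaling, Becn1 was at 0.027 in PQQ-L vs. CON (0.042 after quantile normalization), Pink1, Bnip3, Bnip3l, Sqstm1 and Map1lc3b were at 0.022, 0.053, 0.0073, 0.052 and 0.015 in PQQ-H vs. CON, and Bnip3l, Fundc1 and Map1lc3a were at 0.019, 0.0050 and 0.0021 in PQQ-H vs. PQQ-L. With the choroid plexus score, Pink1, Bnip3l, Optn, Map1lc3a and Map1lc3b were at 0.17, 0.14, 0.042, 0.42 and 0.030 in PQQ-L vs. CON. With the same score, Pink1, Bnip3, Bnip3l, Map1lc3a, Map1lc3b, Becn1 and Ulk1 were at 0.53, 0.054, 0.19, 0.59, 0.18, -0.079 and 0.16 in PQQ-H vs. CON, and Bnip3l and Map1lc3a at 0.051 and 0.17 in PQQ-H vs. PQQ-L. With the striatum score, Pink1 was at 0.073, 0.068 and -0.0057 in the 3 comparisons and Bnip3 at 0.0092 in PQQ-H vs. CON. With the library letter, Fundc1 and Map1lc3a were at 0.0068 and 0.00145 in PQQ-H vs. PQQ-L. Without the 4 libraries, Pink1, Map1lc3a, Map1lc3b and Ulk1 were at 0.16, 0.022, 0.041 and -0.047 in PQQ-L vs. CON, Pink1, Sqstm1 and Map1lc3b at 0.11, 0.035 and 0.090 in PQQ-H vs. CON, and Pink1 at -0.044 in PQQ-H vs. PQQ-L. With 1 library left out, Becn1 (-0.033 to 0.014) and Optn (-0.19 to 0.028) in PQQ-L vs. CON, Pink1 (-0.26 to 0.12), Bnip3 (-0.048 to 0.039), Sqstm1 (-0.048 to 0.037) and Map1lc3b (-0.15 to 0.023) in PQQ-H vs. CON, and Bnip3l (-0.034 to 0.025), Fundc1 (-0.087 to 0.066) and Map1lc3a (-0.12 to 0.032) in PQQ-H vs. PQQ-L spanned 0. The count of 2 called genes of the wider lists was less stable. In PQQ-L vs. CON it was 1 at a pseudocount of 0.01, at a mean FPKM of at least 1, after median-of-ratios scaling, as TPM, with only the 2 groups, without the trend, with the letter (L or R) that opens the library names as a covariate and with a log2FC above 1 required, and it was 0 with array weights, with the striatum or the choroid plexus score and without the 4 libraries. In PQQ-H vs. CON it was 1 with all genes above 0, at a mean FPKM of at least 1, after median-of-ratios scaling or quantile normalization, without the trend, with the letter and with a log2FC above 1, and it was 0 with only the 2 groups, with array weights, with the choroid plexus score and without the 4 libraries. Of all 13796 genes, 0 were called with the choroid plexus score in either comparison. In PQQ-L vs. CON, 17 were called with array weights and 45 with the striatum score, beside 81 in the main fit. In PQQ-H vs. CON, 31 were called with array weights, 242 with the striatum score and 45 with only the 2 groups, beside 151. A lost call in fits that called fewer genes is therefore not particular to the wider lists. Leaving out 1 library gave 0 to 31 called genes of the wider lists in PQQ-L vs. CON, the 31 without CON 2, and 0 to 3 in PQQ-H vs. CON. With a replicate block on the library number (correlation -0.062) the count was 1 in both comparisons, 0 of the 10 genes were called and no other call changed. The cause of these moves was not tested. With 3 CON libraries, of which 2 are rich in striatum genes, the fit without those libraries rests on a single CON library that is assumed to vary like the others.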
